A study of Mus musculus with 4 samples.

Results

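The genes Neurog3, Foxo1 and Ddit4 are all known from work on spermatogonia. Each was the nearest gene of 1 interval in the authors' table of SOX3 peaks common to the testis samples. These called intervals are termed sites below, without further evidence of binding. Members were the entries of that table with 1 of these names as nearest gene, together with every peak of the single lists within 100 kb of those entries. This gave 3 of the 778 common intervals, and 3 of 2912 peaks in replicate 1, 3 of 2598 in replicate 2 and 3 of 2734 in replicate 3. The members were thus selected on the measured peaks themselves, by a call in at least 2 lists and the TSS nearest to it. The presence, position and score of the 3 sites are therefore a description and carry no test.

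SOX3 was profiled by chromatin immunoprecipitation followed by sequencing (ChIP-seq) in whole testis at postnatal day 7. The group consists of 3 ChIP samples of strain 129/SvJ, and 1 input sample stands beside them. The titles of the ChIP samples name testes, in the plural, with a biological replicate number. They do not say how many testes gave each sample. The mice came from a Sox3 null line of mixed background that had been bred onto 129/SvJ. The labels state no genotype for single samples. No source used here says whether 1 animal gave tissue to more than 1 of them. The antibody was a goat polyclonal raised against human SOX3. The input was not analysed here, so no site carries a background value measured in it. In a whole testis the cells that held a site cannot be told apart, and peak lists hold no expression by which the cell type could be checked.

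SOX3 belongs to the SOX B1 transcription factors and is present in spermatogonia on their way out of the stem cell state. Neurog3 encodes neurogenin 3, a basic helix-loop-helix (bHLH) factor that marks these committed progenitors and that is also known for specifying endocrine cells of the pancreas. FOXO1 is a forkhead factor that maintains spermatogonial stem cells and that PI3K and AKT signalling keeps out of the nucleus. DDIT4, also called REDD1, is a stress-induced inhibitor of mTORC1, the growth-promoting kinase complex whose activity favours spermatogonial differentiation.

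All 3 sites were classed as intergenic and none lay at a promoter. In mm9 coordinates the Neurog3 site spanned chr10:61591507-61591858, with its centre 4156 bp upstream of the transcription start site (TSS). The Foxo1 site spanned chr3:52059271-52059807, 12720 bp upstream of the TSS. Its repeat annotation was a MIR element, a member of an old family of short interspersed repeats (SINEs). How much of the interval that element covers was not computed. The Ddit4 site spanned chr10:59378437-59378712, 35944 bp downstream of the TSS and outside the gene by its class. Of the 778 common intervals, 190 lay as near to a TSS as the Neurog3 site or nearer (24.4%), 314 as near as the Foxo1 site (40.4%) and 491 as near as the Ddit4 site (63.1%). Among the 386 intergenic intervals alone the 3 sites stood at places 21, 85 and 186 from the nearest.

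The starts of the 3 genes are shown here because the distances are counted from them and because the called peaks stopped short of them. The nearest edge of any peak lay 3980 bp from the Neurog3 TSS, 12424 bp from that of Foxo1 and 35710 bp from that of Ddit4. Each line gives the 250 bases before the TSS in RefSeq's table for GRCm38.p6, a later build than that of the peaks, read 5′ to 3′ on the gene's strand. Capitals mark matches to a SOX-type sequence.
Neurog3 (chr10:62132840-62133089, plus strand): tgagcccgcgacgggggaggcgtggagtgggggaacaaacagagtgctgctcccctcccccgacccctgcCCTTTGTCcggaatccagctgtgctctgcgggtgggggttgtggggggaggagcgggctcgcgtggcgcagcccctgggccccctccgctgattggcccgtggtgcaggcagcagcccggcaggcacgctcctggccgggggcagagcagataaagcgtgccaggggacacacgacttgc
Foxo1 (chr3:52268087-52268336, plus strand): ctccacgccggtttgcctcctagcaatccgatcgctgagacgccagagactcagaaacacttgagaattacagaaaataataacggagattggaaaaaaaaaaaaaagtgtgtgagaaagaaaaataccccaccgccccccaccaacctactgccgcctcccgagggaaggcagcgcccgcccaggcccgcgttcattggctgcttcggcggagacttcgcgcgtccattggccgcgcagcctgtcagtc
Ddit4 (chr10:59951771-59952020, minus strand): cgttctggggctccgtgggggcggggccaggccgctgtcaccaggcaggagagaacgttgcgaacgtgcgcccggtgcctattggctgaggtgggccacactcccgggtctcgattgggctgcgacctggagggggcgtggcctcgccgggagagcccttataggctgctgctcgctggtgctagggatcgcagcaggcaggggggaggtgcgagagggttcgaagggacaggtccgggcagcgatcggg

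The sequences searched, on both strands, were CCATTGTN and CCTTTGTN and the shorter cores ACAAT and ACAAAG. The reverse of ACAAAG lies within CCTTTGTN, and that of ACAAT within CCATTGTN, so these matches overlap. The Neurog3 window held 1 match, CCTTTGTC, that began 180 bp before the TSS, with the ACAAAG core inside it on the opposite strand. The Foxo1 and Ddit4 windows held none of the 4 sequences. Of the 32851 promoter windows of this length in the table, 7.9% held CCATTGTN or CCTTTGTN and 38.8% held ACAAT or ACAAAG. The Neurog3 and Ddit4 windows were rich in G and C, at 71.2 and 70.0% of bases, against 56.0% for Foxo1 and a median of 52.4% over all windows. The match lay some distance from the Neurog3 peak and is a description of the letters only. The bases under the peaks themselves were not analysed here.

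The Neurog3 site was strong in replicate 1, weak in replicate 3 and not called in replicate 2. The authors' score, a value of the peak caller per peak with a minimum of 40 in each list, was 99.3 in replicate 1, where it ranked 227 of 2912 peaks. In replicate 3 it was 44.8, rank 1750 of 2734. The list medians were 47.8 and 47.3, so the peak stood well above the median in replicate 1 and under it in replicate 3. Scores are read within a list and not between lists.

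The Neurog3 peaks of replicates 1 and 3 met only in part. The replicate 1 peak was 352 bp wide and set the edges of the common interval. The replicate 3 peak, chr10:61591436-61591644, was 209 bp wide and had its centre 142 bp further from the TSS, at 4298 bp upstream. They shared 138 bp, which was 39.2% of the former and 66.0% of the latter. Over the 545 intervals found in exactly 2 lists, the shared stretch had a median of 99.2% of the narrower peak (lower quartile 90.1%), and 57 of them were at or under the Neurog3 value. The closest other peak of replicate 2 lay 480607 bp away.

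The Foxo1 site had the highest score of the 3 in replicates 1 and 2 and was not called in replicate 3. Its score was 160.5 in replicate 1, rank 101 of 2912, and 162.7 in replicate 2, rank 94 of 2598. These ranks are percentiles of 96.6 and 96.4. The peaks were 537 and 480 bp wide, against median widths of 165 and 164 bp in these lists, and shared 452 bp (84.2 and 94.2% of them). Replicate 3 held no peak at the site, and its closest peak lay 953063 bp away.

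A site of this strength in replicates 1 and 2 was seldom missing from replicate 3. Of the 418 common intervals in both lists, 233 were in replicate 3 as well (55.7%, exact Clopper-Pearson 95% interval 50.8 to 60.6%). The share was 79.4% with both scores at 60 or more, 91.1% at 100 or more and 95.3% (86.9 to 99.0%) at 150 or more. Of the 64 intervals in the last class 3 lacked a replicate 3 peak, and Foxo1 was 1 of them. The other two lay in introns, nearest to Cep152, a centrosome gene (scores 349 and 201), and to Rel, an NF-kappaB subunit (178 and 159). The confidence intervals cover counting error only and treat the 64 as separate sites. Several of the 64 shared a nearest gene, such as Eapp or Tex14, and those at Eapp and Tex14 were all in replicate 3. The share over separate loci was not computed. The limit of 150 was chosen with the Foxo1 scores known.

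**Figure D1:**
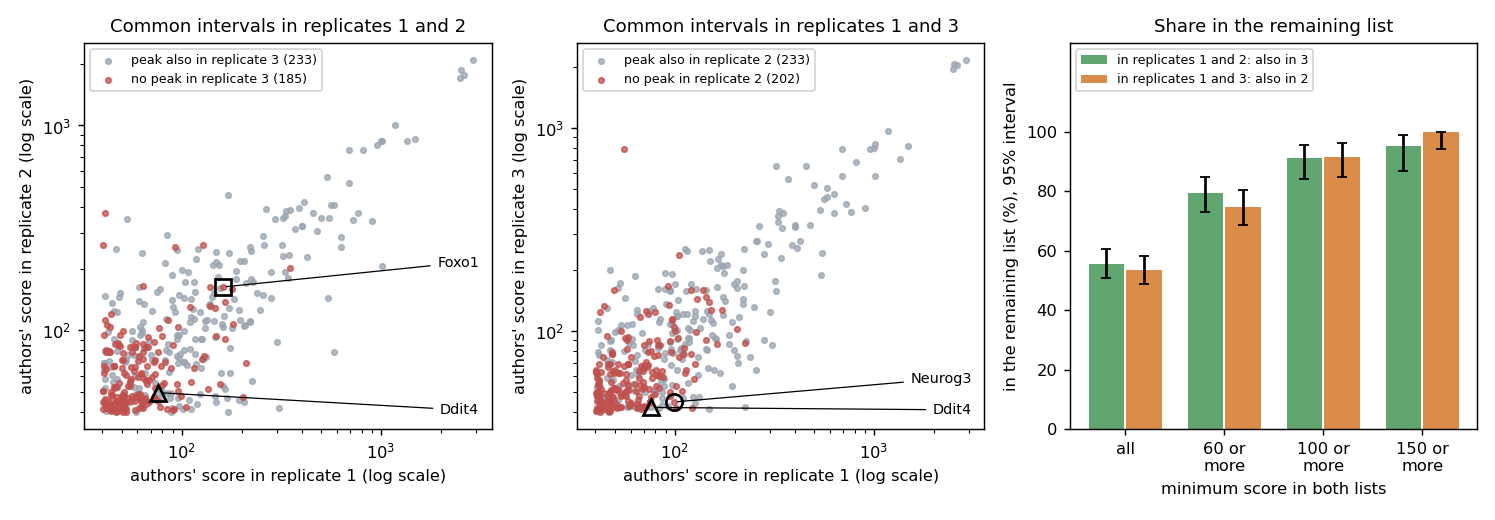
Left and middle, the authors' score in replicate 1 (x axis, log scale) against that in replicate 2 or 3 (y axis, log scale) for each common interval in both lists, coloured by whether the remaining list also had a peak, with the 3 genes marked. Right, the share in the remaining list (%) by the minimum score in both lists, with exact 95% intervals: for replicates 1 and 2 it goes from 55.7% to 95.3%, and Foxo1 lies among the 3 exceptions at the highest minimum.

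In the pair of replicates 1 and 3, to which the Neurog3 site belonged, 233 of 435 intervals had a replicate 2 peak (53.6%, 48.8 to 58.3%). Where the replicate 3 score was under 50, as at Neurog3, 31 of 101 did (30.7%). Among these 101, Neurog3 included, 11 reached a score of 90 in replicate 1, as Neurog3 did, and 7 of the 11 were in replicate 2. Both limits were set with the Neurog3 scores known. All 62 intervals with scores of 150 or more in replicates 1 and 3 were in replicate 2.

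The Ddit4 site was the only 1 of the 3 called in every sample, and in each list it had the lowest score of the sites called there. Common intervals in all 3 lists made up 29.9% of the table, so 1 of 3 is near that background. The score was 76.0 in replicate 1, rank 383 of 2912, and 49.6 in replicate 2, rank 1160 of 2598. In replicate 3 a pair of separate peaks touched the interval, with scores of 40.7 and 42.1 and ranks of 2598 and 2351 of 2734, close to the minimum. Among the 233 intervals in all 3 lists its score stood at place 169 in replicate 1, 200 in replicate 2 and 226 in replicate 3 (medians of 117, 111 and 109). Scores under 50 in both replicates 2 and 3 were found at 13 of the 233 (5.58%).

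The Ddit4 peaks lay over each other in replicates 1 and 2 and were split in replicate 3. The replicate 2 peak, chr10:59378531-59378695, lay wholly inside the 276 bp of replicate 1. The first peak of replicate 3, 126 bp wide, also lay wholly inside it and shared 100 bp with that of replicate 2. The second, 146 bp wide, began 32 bp beyond the first and reached past the edge of the interval, with 50 bp within it. An interval in all 3 lists held at least 2 replicate 3 peaks in 27 of 233 cases (11.6%). The peak centres lay 35783 to 35951 bp downstream of the TSS.

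**Figure D2:**
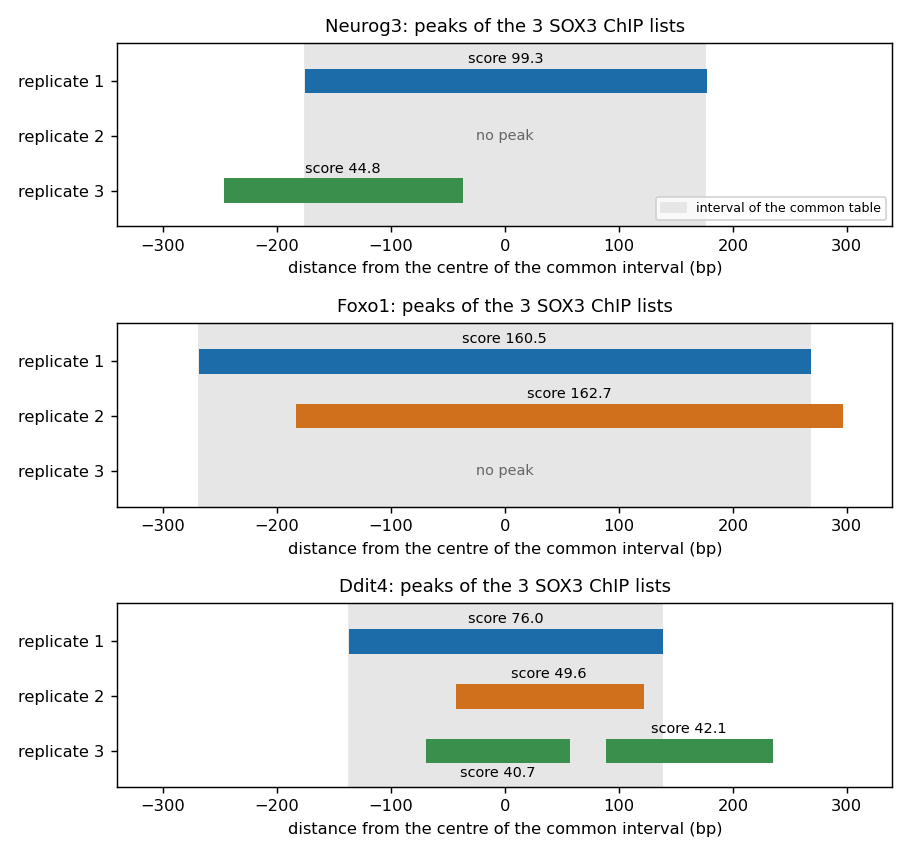
Extent of each called peak (bars, 1 row per replicate) relative to the centre of the common interval (x axis, bp) at the 3 genes, with the authors' score above or below each bar and the interval of the common table in grey. Neurog3 has no peak in replicate 2 and Foxo1 none in replicate 3, while Ddit4 has peaks in all 3 lists, with 2 in replicate 3.

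The order of the sites differed between the lists once missing calls are counted. In replicate 1 Foxo1 (160.5) came before Neurog3 (99.3) and Ddit4 (76.0). In replicate 2 Foxo1 (162.7) came before Ddit4 (49.6), and Neurog3 had no call. In replicate 3 Neurog3 (44.8) came before Ddit4 (42.1 and 40.7), and Foxo1 had no call. Ddit4 thus stood last of the called sites in each list and ahead of the site with no call in replicates 2 and 3. A single score per list has no replicate of its own, so these differences carry no error. With a minimum score of 60, 1 of the 3 sites, Foxo1, remained in at least 2 lists, where 41.8% of all common intervals did.

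**Figure D3:**
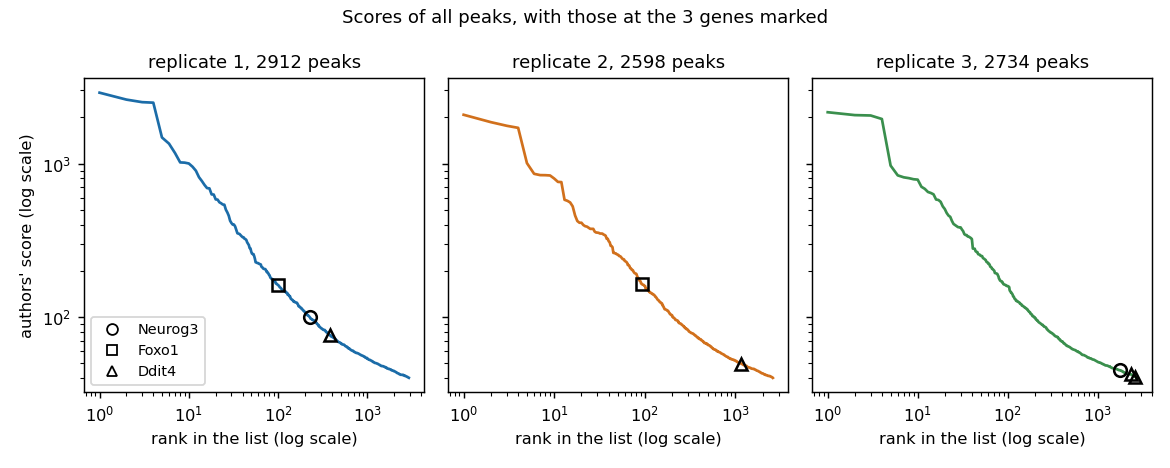
The authors' score (y axis, log scale) against rank (x axis, log scale) for all peaks of each list, with the peaks at Neurog3, Foxo1 and Ddit4 as open symbols. The 3 genes lie at ranks 101 to 383 in replicate 1, while in replicate 3 Neurog3 lies at rank 1750 of 2734 and the Ddit4 peaks lie near the low end, at ranks 2351 and 2598.

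The number of further peaks around the 3 genes lay within the range usual for common intervals. Within 100 kb of the sites the lists held 9 peaks, of which 8 made up the sites themselves. The remaining peak was near Foxo1 in replicate 2, at chr3:52132800-52133314, 72992 bp from the site and 60798 bp downstream of the Foxo1 TSS. It scored 55.5 (rank 783 of 2598), was 515 bp wide and overlapped no peak of another list. Neurog3 and Ddit4 had no further peak in their windows, as had 37.8% of the other 775 common intervals, while 19.7% had 1, as Foxo1 did, and 42.5% more (quartiles 0 and 3). The first peak beyond the window was 255575 bp from the Neurog3 site, in replicate 3, with a score of 82.8. At Ddit4 it was 488539 bp away, in replicate 2, with a score of 85.1.

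Of the 9 peaks, 8 overlapped a peak of another list (88.9%), which the choice of common intervals brings about. This share is therefore not a result about the 3 genes. Over the whole lists the shares were 22.0, 22.9 and 22.8% in replicates 1, 2 and 3.

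**Figure D4:**
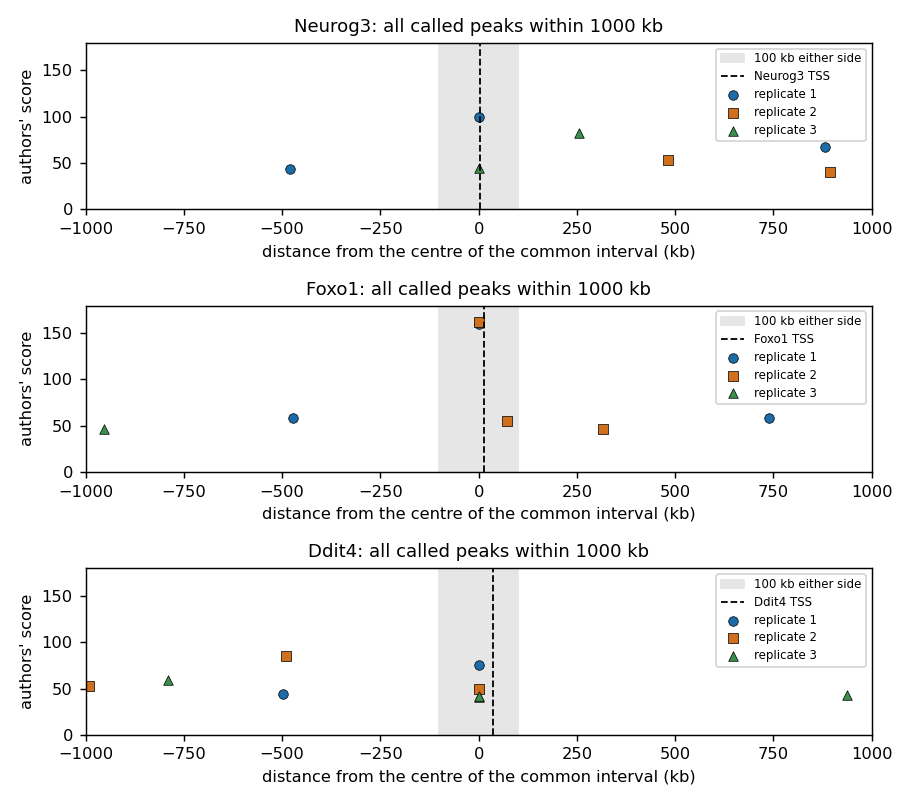
Every peak called within 1000 kb of each site, by distance from the centre of the common interval (x axis, kb) and the authors' score (y axis), with 1 symbol per replicate, the TSS as a dashed line and 100 kb on either side in grey. Beside the sites, the 3 windows hold a single peak, that of replicate 2 downstream of the Foxo1 TSS with a score of 55.5.

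In RefSeq's gene order on GRCm38.p6, Neurog3 stands between Fam241b and Tspan15, a tetraspanin gene. Foxo1 stands between the long noncoding RNA Gm30125 and the pseudogene Gm34303, with Maml3, a Notch coactivator, and Cog6, of the Golgi, as nearest protein-coding genes. Ddit4 stands between the long noncoding RNA Gm40673 and Anapc16, a subunit of the anaphase-promoting complex, with Dnajb12, a co-chaperone, as the protein-coding gene next to Gm40673. All 9 had 0 common intervals, beside 2.52% named over all protein-coding genes, and nothing is read from so few genes. The table names 1 gene per interval, by its nearest TSS, and whether HOMER's gene set held the noncoding ones was not checked.

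The share of other pathway and marker genes that were named was close to that of all genes. A protein-coding gene was the nearest gene of a common interval in 2.52% of 21900 cases. Beside the 3 genes themselves, the 12 lists of related genes and cell type markers held 173 genes, and 4 of them (2.31%) were named. The lists were drawn up with earlier results of these data known.

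Of the 32 genes of the FOXO, PI3K and mTOR pathway only Foxo1 was named, and 31 were not, among them Foxo3, Foxo4, Akt1, Tsc1, Tsc2, Mtor and Rptor. The list of stress genes and mTORC1 inhibitors had 2 of 21, Ddit4 and Gadd45g, a stress-induced growth arrest gene. Gadd45g had a pair of promoter intervals, 227 bp upstream and 22 bp downstream of its TSS. The former scored 63.1 in replicate 2 and 65.2 in replicate 3, and the latter 44.4 in replicate 1 and 41.6 in replicate 2. Sesn1, Sesn2, Sesn3 and Ddit4l, other inhibitors of mTORC1, had none. Without the selected genes the counts were 0 of 31 and 1 of 20, where 2.52% of all protein-coding genes were named. Nothing is read from such small counts.

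Of the 32 proneural bHLH genes, their partners and targets, 2 were named. Beside Neurog3 this was Tcf12, an E protein of the kind with which neurogenins pair, with an interval in intron 3, 50107 bp downstream of the TSS. Its peak had a score of 50.0 in replicate 2 and of 53.1 in replicate 3. Neurog1, Neurog2 and Neurod1 had none. Without the selected Neurog3 the count was 1 of 31, where 2.52% of all protein-coding genes were named. Sox3 itself and the 11 other genes of the list of SOX B genes and partners had none. SOX genes outside that list were not counted. Nothing is read from these small counts either.

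By cell type, the spermatogonial markers with an interval were the 3 selected genes alone, which had one by selection. Without them the counts were 0 of 25 for undifferentiated spermatogonia, 0 of 9 for committed progenitors and 0 of 13 for differentiating spermatogonia. Of all protein-coding genes 2.52% were named, and lists this small can hold none at that share, so nothing is read from these counts. The endothelial marker Pecam1 had an intergenic interval 10023 bp upstream of its TSS with scores of 162, 103 and 165 in replicates 1, 2 and 3 (1 of 6 markers). Lhcgr, the luteinizing hormone receptor of Leydig cells, had one in intron 1 with scores of 48.6 and 55.5 in replicates 1 and 2 (1 of 8). Markers of Sertoli cells (15), peritubular myoid cells (6) and macrophages (6) had none. Within 5000 bp of a TSS, 0.712% of protein-coding genes had an interval. Of the 173 listed genes other than the 3 members 1 did, Gadd45g (0.578%).

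Intervals were compared by score percentile over the 3 lists, with 0 where a list had no peak. The one most like that of Foxo1 was the intronic interval with Rel as nearest gene, 0.643 percentile points away. An exonic one of Txndc2, a sperm thioredoxin, followed at 0.934. The nearest to Neurog3 were intergenic intervals on the X chromosome, each 5.53 points away, that scored 74.9 in replicate 1 and 44.8 in replicate 3. Those at Gm14345 and Spin2-ps1 were listed, but further X chromosome intervals had the same scores and tied with them. The one most like that of Ddit4 was an intronic interval with Mtr, the methionine synthase gene, as nearest gene. It was 8.11 points away (scores 65.8, 48.4 and 42.2) and lay upstream of the Mtr TSS, so the intron is not assigned to Mtr here. An intronic interval with Rgmb, a bone morphogenetic protein co-receptor gene, as nearest gene followed at 15.4. The only other common interval annotated to a MIR element was nearest to Sec16b, 205063 bp away, and scored 57.4 in replicate 1 and 51.1 in replicate 3.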

How the data were processed

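SOX3 ChIP-seq was done on 3 postnatal day 7 testis samples. Per the labels' protocols tissue was fixed in 1% formaldehyde for 8 min and read as 50 bp single reads. Per the submitters' processing notes, Bowtie2 2.0.0 was used with build mm9, and the peak names begin with MACS. No source used here gives the caller's settings or the handling of multiply mapping reads. Each deposited list holds the authors' score per peak, called per sample. The common table is 1 for the group, and its TSS distance, class and repeat were made, per the file headers, by HOMER's annotatePeaks.pl. Its own score was 0 in all 778 entries and was not used. In all 545 entries found in 2 lists its edges are those of the lowest-numbered replicate, so TSS distances refer to that peak. Read depth is unknown.

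Python 3.11.15, pandas 2.3.3 and scipy 1.17.1 were used. List starts were converted to count from 1, and a peak was assigned to an interval at an overlap of 1 bp or more. Overlap and motif functions were tested on simulated data. Genes were matched to RefSeq (776 of 778 entries) by identifier, without converting coordinates. For promoters named as nearest in several entries, the TSS implied by the distances was the same within 1 bp for 50 of 53. No test was run, since the members were chosen from these values, and members, limits and gene lists were chosen with earlier results of these data known. The genes named are the 3 members, their neighbours, list genes with an interval, and for each member the 2 intervals most alike in score percentile. The genes listed as having none, Cep152, Eapp and Tex14 are named outside this rule, as are the score limits of 50, 90 and 150. Alternatives were a minimum score of 60, a 50% overlap, a 50 kb window, other TSS limits and leaving out each replicate.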

Additional observations from a re-analysis of the deposited data

How the results depend on the processing

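No paired analysis was possible because a single group has peak lists. The 3 sites became 1 when a peak in all 3 lists was asked for (Ddit4) and 1 with a minimum score of 60 (Foxo1), and stayed 3 with 50% of the replicate peak overlapping. Leaving out a replicate left 1 to 2 sites: Ddit4 without replicate 1, Neurog3 and Ddit4 without replicate 2, Foxo1 and Ddit4 without replicate 3. The 9 peaks within 100 kb became 8 within 50 kb, 4 with a minimum score of 60 and 6 without any 1 replicate. The share in another list was 55.6% with a 50% reciprocal overlap, 50.0% with a minimum score of 60, and 50.0 to 83.3% without a replicate, lowest without replicate 1. The 156 genes with an interval within 5000 bp of the TSS became 551 at any distance, 82 for intervals in all 3 lists and 107 to 109 without a replicate. The 7 listed genes with an interval became 2 within 5000 bp, 2 in all 3 lists and 3 to 5 without a replicate (4 without replicate 1, 3 without replicate 2). Fewer lists or fewer peaks enter these counts by construction. Without read depth or signal values, how far under the caller's limit a site missing from a list lay could not be measured.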
